A study of Gasterosteus aculeatus with 31 samples.

Results

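The regions described here are open-chromatin peaks of the middle of the stickleback X chromosome with a higher male-to-female count ratio than most peaks there. They lie on groupXIX, the X of the threespine stickleback, and start between 4 and 12 Mb, a stretch called the X middle below. They were chosen by the data: each has at least 10 counts summed over the fish and a mean male CPM of at least 0.60 of the mean female CPM. CPM is a peak's count divided by the library's total count off groupXIX and multiplied by 1000000, so that the X itself does not enter the scale. Of the 1696 X-middle peaks, 209 met the rule (12.3%) and are called the kept peaks. The other 1487 X-middle peaks fell below it, and the whole table holds 102149 peaks. The male-to-female ratio over all fish selected the kept peaks, so it is given as a description, with no test.

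In threespine stickleback, females carry a pair of X chromosomes and males an X and a Y. The Y has lost or changed many sequences along the part that no longer recombines with the X, while the pseudoautosomal end still pairs with it. A locus whose Y copy is gone is present in males once for each pair of copies in females, and some animals raise the output of the single X in males, which is known as dosage compensation. ATAC-seq cuts accessible DNA with the Tn5 transposase and counts the fragments, so a peak marks open chromatin and its count depends both on accessibility and on how many copies of the DNA a cell holds.

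The fish were 31 juveniles of 6 to 8 months, not yet sexually mature, whose fathers were caught in the wild at Putah Creek. The father-reared fish (label Day 10) were raised by those fathers, and the orphaned fish (label Day 0) were reared by hand. All of them explored an open field, met a moving model of a sculpin, a predatory fish, and were killed about an hour later, and their sex was read from a DNA marker. The groups were 8 father-reared males, 8 father-reared females, 7 orphaned males and 8 orphaned females, each library from 1 side of the brain of 1 fish. There is no unchallenged group. Library totals ran from 2857578 to 10540612 counts with a median of 4424554, and a library's median count at a kept peak ran from 19 to 85. In tissue of a brain side, with its cells mixed, a smaller number of cells with an open site and less open chromatin per cell cannot be told apart. The brain label was not checked against marker genes, because the table names no genes and no annotation of its genome build was used here. The peaks are therefore named by position, in coordinates of a build that the sources used here do not name, and their place relative to genes was not analysed here. No row of the table is named for a Y chromosome, and where reads from the Y were placed is not known. Their part in the counts was not tested.

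Most X-middle peaks sat close to 0.50 of the female level in males, and the kept peaks formed a long, thin tail above them. The ratio of the 1487 other peaks had a median of 0.500 and ran from 0.347 to 0.5998. The ratio of the 209 kept peaks had a median of 0.770 and ran from 0.601 to 1.39. The tail was not a cluster with a gap below it. A ratio of 0.60 to under 0.65 was found at 48 kept peaks, 0.65 to under 0.70 at 26, 0.70 to under 0.80 at 44, 0.80 to under 0.90 at 43, 0.90 to under 1.0 at 19, 1.0 to under 1.2 at 24, and 1.2 or more at 5. On the other 20 linkage groups, 89261 peaks had a median ratio of 0.988, with the 2.5 and 97.5 percentiles at 0.843 and 1.13. Of the kept peaks, 131 lay below that autosomal band, 65 lay inside it and 13 lay above it.

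**Figure D1:**
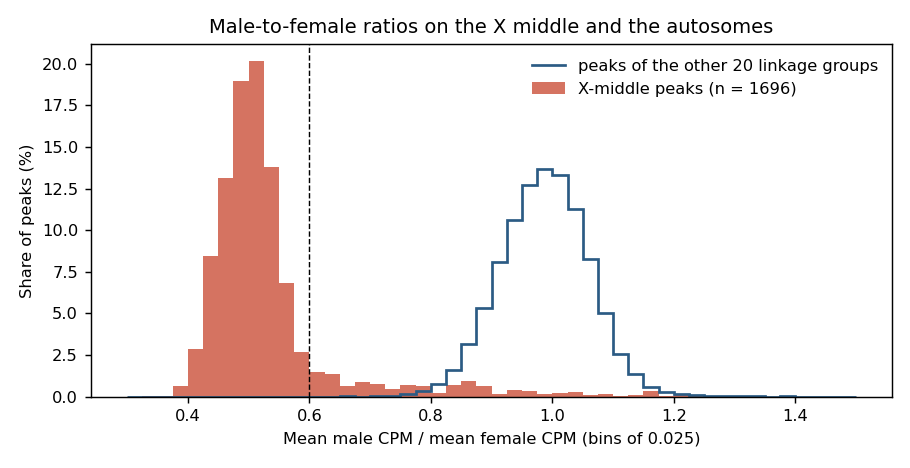
Share of peaks (y axis, %) by the ratio of mean male to mean female CPM (x axis, bins of 0.025) for the 1696 X-middle peaks (bars) and for the 89261 peaks of the other 20 linkage groups (line; 124 of these lie outside the plotted range). The dashed line marks 0.60: the 209 kept peaks are the low tail to its right, which reaches into the autosomal peaks around 0.988.

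At the lower border the rule drew a line through a continuous range. The peak just inside, groupXIX 7626588 to 7626988, had a ratio of 0.601 with 8.81 to 23.0 CPM in males (median 14.5) and 18.4 to 36.5 CPM in females (median 24.4). Just outside, groupXIX 4276769 to 4277169 had a ratio of 0.5998 with 1.88 to 6.99 CPM in males (median 4.55) and 5.56 to 10.7 CPM in females (median 7.12). Both pairs of ranges overlapped, and at each peak about as many males stood on either side of 0.60 of the female mean (7 and 8 of 15 at or above it). The next peaks inside, starting at 11034957 and 5894554, also had 0.601, and the next outside, at 8859353 and 11116109, had 0.599 and 0.598. Leaving out any single library kept the ratio at 0.60 or more for 184 of the 209 kept peaks, and 40 of the other peaks reached 0.60 without some library. At 54 kept peaks (25.8%) each of the 15 males alone reached 0.60 of the female mean, which by arithmetic no peak outside the rule can do.

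The kept peaks differed little from the others in median female level and in width, but they were more frequent among the strongest peaks. Mean female CPM had a median of 8.90 at kept peaks (1.06 to 62.1) and 8.32 at the others, with upper quartiles of 19.1 and 11.3. Mean male CPM had a median of 6.83 (0.640 to 70.0) at kept peaks and 4.15 at the others, a difference that the rule fixes in part. Ranked by female CPM and cut into 10 bins of equal size, the top bin (20.8 to 84.5 CPM) held 50 kept peaks among 170 (29.4%). The remaining bins held 159 kept peaks (10.4%), from 7.06% to 15.9% in a bin. The 15.9% was in the weakest bin (0.625 to 6.20 CPM), with 27 of 170, and the next weakest had 13.5%. All 209 kept peaks were exactly 400 wide, as were 1469 of the 1487 others. The coefficient of variation between fish of a sex had a median of 0.209 in males and 0.208 in females at kept peaks, and 0.253 and 0.196 at the others.

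The clearest members were those at which males matched or exceeded females in both care groups. A ratio above 1 over all fish was found at 29 kept peaks, but not all of these were above 1 in each care group. At groupXIX 6090739, for instance, the ratio was 1.18 in father-reared and 0.852 in orphaned fish. The top of the list was groupXIX 7569454 to 7569854, where males had 30.7 to 49.4 CPM (median 39.4) and females 20.1 to 35.1 CPM (median 28.0). At that site 12 of the 15 males lay above the highest female and none lay below the lowest, and the ratio was 1.42 in father-reared and 1.36 in orphaned fish. This is the highest ratio of the X middle, 1.39 over all fish.

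At groupXIX 6558898 to 6559298 the males had 27.9 to 55.2 CPM (median 40.4) and the females 25.8 to 43.6 CPM (median 32.8), a ratio of 1.27. At groupXIX 6092512 to 6092912 the males had 19.1 to 33.8 CPM (median 28.4) and the females 16.3 to 32.5 CPM (median 23.3), a ratio of 1.23. At groupXIX 6401194 to 6401594 the males had 20.1 to 30.2 CPM (median 26.9) and the females 17.4 to 28.1 CPM (median 20.7), a ratio of 1.19. In all 3 peaks the sexes overlapped, with 6, 2 and 4 males above the highest female and no male below the lowest. At groupXIX 11190926 to 11191326 the males had 26.4 to 45.6 CPM (median 31.5) and the females 20.2 to 33.5 CPM (median 26.9), a ratio of 1.22. At groupXIX 8600556 to 8600956 the males had 8.35 to 13.6 CPM (median 12.5) and the females 6.23 to 13.1 CPM (median 10.3), a ratio of 1.21. The overlap was again wide, with 5 and 3 males above the highest female.

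The 4 others of the 10 peaks with the highest ratio in both care groups had ratios of 1.17. The one at groupXIX 8512095 to 8512495 had 19.4 to 30.8 CPM in males (median 23.9) and 16.3 to 24.3 CPM in females (median 21.2). The one at groupXIX 7590995 to 7591395 had 6.23 to 11.9 CPM in males (median 9.57) and 4.17 to 10.8 CPM in females (median 8.05). Of these, the first had 7 males above the highest female and the second had 2. The one at groupXIX 6145451 to 6145851 had 20.6 to 38.6 CPM in males (median 29.7) and 22.1 to 30.6 CPM in females (median 25.8), with 7 males above the highest female and 1 below the lowest. The one at groupXIX 11969097 to 11969497 had 8.96 to 12.7 CPM in males (median 11.2) and 6.23 to 11.4 CPM in females (median 9.47). At all 10 peaks each of the 15 males reached at least 0.60 of the female mean.

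**Figure D2:**
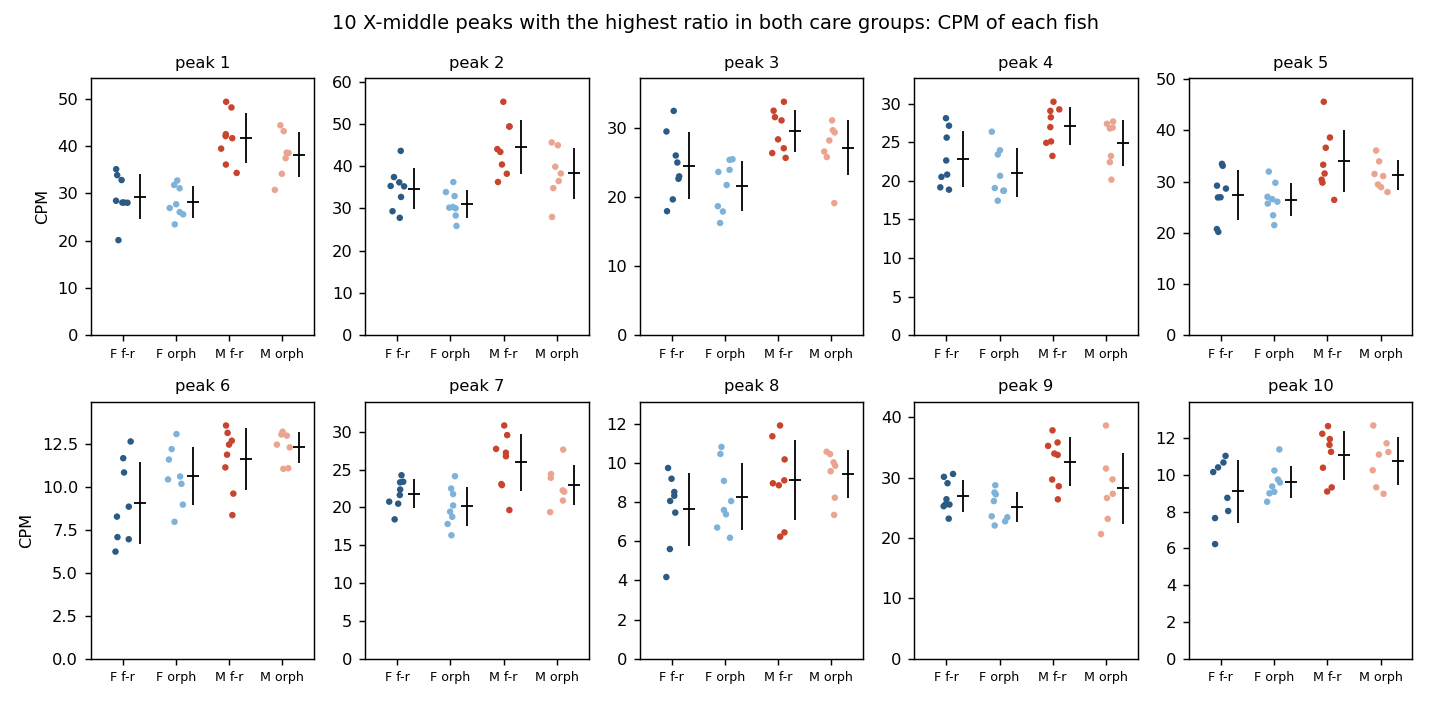
CPM (y axis) of every fish at the 10 kept peaks with the highest value of the lower of their father-reared and orphaned ratios, in the order of the text (peak 1 starts at 7569454, peak 10 at 11969097). Points are fish, F is female, M is male, f-r is father-reared and orph is orphaned, and the bars beside them are the mean ± SD. At peak 1 the males run from 30.7 to 49.4 CPM against 20.1 to 35.1 CPM in females, and at the other peaks the sexes overlap more.

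The strongest kept peaks were not all alike. At groupXIX 8185198 to 8185598, the highest in females, the males had 45.8 to 86.5 CPM (median 71.9) and the females 40.6 to 82.0 CPM (median 64.2), a ratio of 1.13. At groupXIX 8846800 to 8847200 the males had 45.4 to 74.2 CPM (median 59.6) and the females 39.7 to 76.5 CPM (median 59.3), a ratio of 1.02. At groupXIX 7382380 to 7382780 the males had 36.5 to 78.0 CPM (median 59.1) and the females 30.8 to 79.9 CPM (median 49.1), a ratio of 1.16. The sexes overlapped almost fully at these 3 peaks. At groupXIX 7633076 to 7633476 the males had 24.4 to 47.9 CPM (median 34.9) and the females 38.7 to 68.5 CPM (median 55.2), a ratio of 0.651. At groupXIX 8123780 to 8124180 the males had 30.3 to 59.8 CPM (median 42.0) and the females 41.6 to 77.1 CPM (median 53.9), a ratio of 0.796. At those last peaks 9 and 7 of the 15 males lay below the lowest female.

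The kept peaks were bunched along the chromosome, and position was not used by the rule beyond the borders of the stretch. From 4 to 6 Mb, 11 of 399 peaks were kept (2.76%), and from 6 to 12 Mb, 198 of 1297 (15.3%). By 1 Mb window from 4 Mb on, the share was 2.16%, 3.27%, 21.7%, 14.1%, 20.0%, 10.1%, 6.84% and 15.9%. The fullest windows were thus at 6 and 8 Mb, with 49 of 226 and 52 of 260 peaks. Of the 80 windows of 100 kb, 50 held a kept peak and 30 held none, and the 10 fullest held 115 of the 209 (55.0%) among 309 peaks. From 6.0 to 6.1 Mb, 23 of 31 peaks were kept, with a median ratio of 0.737 over all peaks of the window. From 11.9 to 12.0 Mb, 18 of 28 were kept, with a median of 0.770. In the windows from 8.1 and 8.0 Mb, 14 of 39 and 11 of 40 were kept.

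The fullest windows at the top of the stretch lie beside a change in the chromosome. From 11.5 to 11.7 Mb no peak reached 0.60. From 11.7 to 11.8 Mb 9 of 27 did, and from 11.8 to 11.9 Mb 3 of 35, with a median ratio of 0.494, so the share did not rise in a single step. Beyond the stretch, 9 of 15 peaks from 12.0 to 12.1 Mb reached 0.60 with a median ratio of 0.689, and 24 of 27 from 12.1 to 12.2 Mb with a median of 1.01. From 12 Mb to the end of the linkage group, 86.7% of 1889 peaks reached 0.60 and the median ratio was 0.943. At the other end, 88.1% of the 369 peaks from 2 to 4 Mb did, and 100% of the 437 peaks from 0 to 2 Mb. The window from 6.0 to 6.1 Mb had lower medians on either side. From 5.9 to 6.0 Mb 0 of 27 peaks were kept, with a median ratio of 0.515. From 6.1 to 6.2 Mb 9 of 37 were kept, with a median of 0.522. The 1 Mb windows from 5 and from 7 Mb had median ratios of 0.501 and 0.510.

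**Figure D3:**
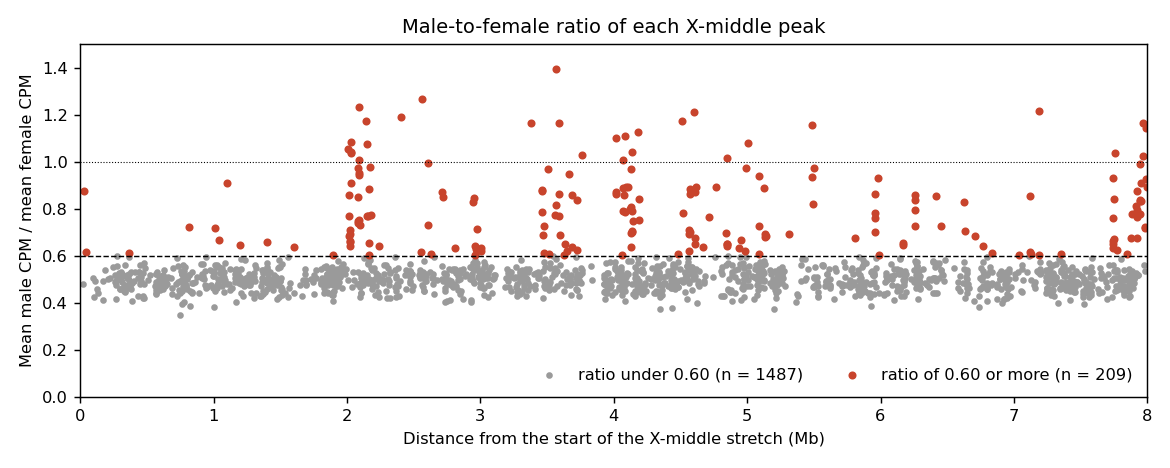
Ratio of mean male to mean female CPM (y axis) of each X-middle peak against its distance from the start of the stretch (x axis, Mb). Kept peaks (n = 209) are red and the other peaks (n = 1487) grey, the dashed line marks 0.60 and the dotted line 1. Kept peaks stand in columns near 2, 4 and 8 Mb from the start, over an even band of other peaks around 0.500.

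Neighbouring kept peaks came in runs with other peaks between the runs. The 209 formed 101 runs of adjacent kept peaks along the list of X-middle peaks, 56 of them single peaks. The other 45 runs held 153 kept peaks. Of all kept peaks 73.2% had a kept peak next to them, compared with 12.2% of the other peaks. The nearest X-middle peak was itself kept for 57.9% of the kept peaks and for 6.99% of the others. That share was 64.7% where the nearest peak lay within 1000 bases (55 of 85) and 41.7% where it lay 5000 bases or more away (5 of 12). Peaks this close can share fragments, so they are not separate observations.

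The longest run had 13 peaks from 6009376 to 6033184, a span of 23808 bases, with ratios from 0.643 to 1.08 and a median of 0.768. The next had 8 peaks from 11944510 to 11970489 with ratios from 0.777 to 1.17, then 7 from 6084549 to 6093727 (0.737 to 1.23) and 6 from 8130723 to 8137536 (0.702 to 1.04). Within a run the ratio was therefore not a single value. The 182 other peaks that lay beside a kept peak had a median ratio of 0.511, and the 1305 with no kept peak beside them 0.499, both held under 0.60 by the rule. The nearest X-middle peak of a kept peak, kept or not, had a median ratio of 0.648.

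Of the 11 kept peaks from 4 to 6 Mb, 9 were single and the other two formed a run from 4028677 to 4041132. Those with the highest ratios were groupXIX 5103454 to 5103854 (a ratio of 0.909, with 44.1 CPM in females) and groupXIX 4028677 to 4029077 (0.874, with 8.77 CPM in females). One of the 11, groupXIX 5402688 to 5403088, was picked out after its values were seen, because it varied most between males of all kept peaks. It had 0 counts in 7 of 15 males and in 3 of 16 females. Its coefficient of variation was 0.994 in males, against 0.558 at the next kept peak. In the 8 males with counts it had 19 to 32 counts, so each male had either none or a clear signal. Its ratio of 0.657 thus averages fish with and fish without the peak.

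Whether the kept peaks recur in other fish was asked by choosing peaks in 1 care group and reading them in the other, whose fish had no part in the choice. The care groups hold different fish with different leading numbers of the fish identifier, read here as families. The design used families that shared a parent, so fish of the care groups may still be related. In the father-reared fish alone the rule chose 263 peaks, of which 174 (66.2%) had a ratio of 0.60 or more in the orphaned fish, with a median ratio of 0.706. Among the 1433 peaks not chosen, 77 (5.37%) did, with a median of 0.500. In the orphaned fish alone the rule chose 251, of which 174 (69.3%) reached 0.60 in the father-reared fish, with a median of 0.731. Among the 1445 not chosen, 89 (6.16%) did. Over all X-middle peaks the share was 14.8% in orphaned and 15.5% in father-reared fish.

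The higher the ratio at which a peak was chosen, the more often it recurred. Chosen in father-reared fish at 0.60 to under 0.65, 18 of 85 peaks (21.2%) reached 0.60 in orphaned fish, beside 14.8% of all X-middle peaks. The 85 had a median ratio of 0.525 there. The counts reaching 0.60 were 23 of 34 at 0.65 to under 0.70, 41 of 51 at 0.70 to under 0.80, 31 of 32 at 0.80 to under 0.90 and 61 of 61 at 0.90 or more. In the reverse direction they were 20 of 77, 21 of 34, 45 of 50, 37 of 38 and 51 of 52. The 77 peaks of the lowest step had a median ratio of 0.525 in father-reared fish, where 15.5% of all X-middle peaks reached 0.60. The 174 peaks chosen in both care groups were all among the 209. The 35 kept peaks chosen in only 1 care group had ratios no higher than 0.693, and all 135 with a ratio of 0.70 or more were chosen in both. The ratio over all fish pools the care groups, so this overlap is largely built in and only describes the peaks.

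**Figure D4:**
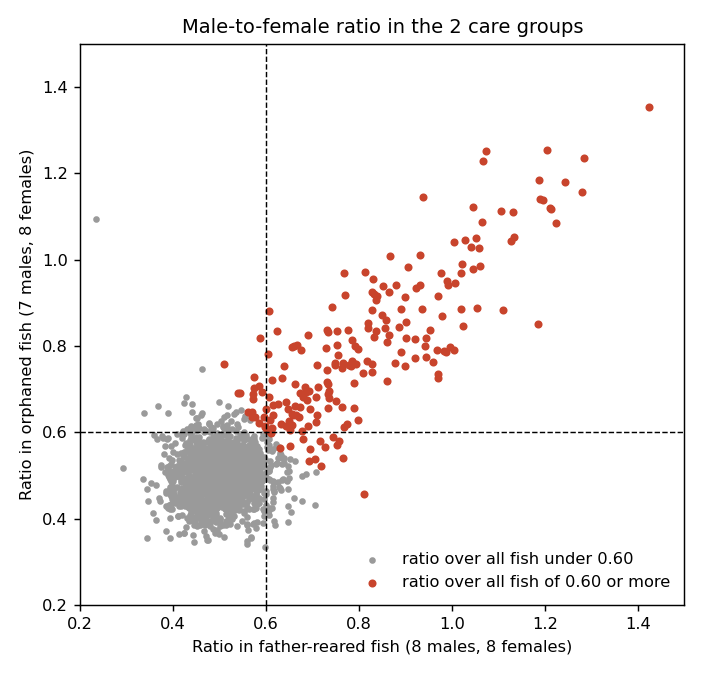
Ratio of mean male to mean female CPM in the 15 orphaned fish (y axis) against that in the 16 father-reared fish (x axis) for each X-middle peak, with kept peaks in red and the others in grey. The dashed lines mark 0.60: the 174 peaks to the upper right of both lines are all kept peaks, and the other peaks form a round cloud near 0.500 on both axes. Kept peaks are defined by the ratio over all fish, which pools both axes, so their place is largely built in.

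A test in the held-out fish gave the same order. For each care group, edgeR's quasi-likelihood F test on the raw counts asked whether the male-minus-female log2 difference of a peak lay above the median of the X-middle peaks in the same fish. That reference was -0.95 in orphaned and -0.96 in father-reared fish. P-values were adjusted by the Benjamini-Hochberg method over all peaks of the table that passed the filter, and 0.05 was the threshold. In orphaned fish, 107 of the 259 peaks chosen in father-reared fish and tested were called above the reference (41.3%), beside 6.42% of all tested X-middle peaks. In father-reared fish, 97 of the 247 chosen in orphaned fish were called (39.3%), beside 5.78%. No X-middle peak was called below the reference in either. Of the tested peaks that were not chosen, 1 of 1424 was called in orphaned fish and 0 of 1432 in father-reared fish. The median deviation from the reference was 0.48 and 0.52 (log2) for the chosen peaks and -0.03 for those not chosen in either group of fish.

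The calls came from the upper range of the ratio. In orphaned fish 7 of 117 peaks chosen at 0.60 to under 0.70 were called, 44 of 82 at 0.70 to under 0.90 and 56 of 60 at 0.90 or more. In father-reared fish these were 2 of 110, 46 of 86 and 49 of 51. A peak near 0.60 that missed the threshold is not thereby shown to sit at the reference, since these fits have 15 and 16 fish. In all, 120 kept peaks were called in at least 1 direction and 84 in both.

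The 84 peaks called in both directions had ratios from 0.760 to 1.39 (median 0.928) and 693 to 9495 counts over all fish. They were spread over 53 runs. Each of the 8 windows of 1 Mb held some, with 1, 1, 20, 10, 23, 8, 3 and 18 from 4 Mb on. At 52 of them all 15 males reached 0.60 of the female mean. The choices and calls that picked the 84 used the fish of both care groups, so these high ratios are largely fixed by them. At groupXIX 7569454 the deviation was 1.41 with an SE of 0.12 in orphaned fish (edgeR adjusted p = 5.1e-11) and 1.49 with an SE of 0.15 in father-reared fish (adjusted p = 3.0e-09). The other 9 of the 10 peaks with the highest ratios were called in both as well, with deviations from 1.13 to 1.34. All 10 were picked by their ratios in both care groups. For them these values are a description and not a held-out test.

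Among the 5 strongest peaks in females the test separated cases. These are kept peaks, picked with the ratio over all fish, so for them too the test is not held out. The peak at 8185198 deviated by 1.12 (SE 0.14) in orphaned and 1.15 (SE 0.17) in father-reared fish, with edgeR adjusted p of 3.1e-07 and 1.6e-05. The peaks at 8846800 and 7382380 were called in both care groups too. The peak at 8123780 deviated by 0.66 (SE 0.14) and 0.63 (SE 0.17), which edgeR called in orphaned fish (adjusted p = 0.0065) but not in father-reared fish (adjusted p = 0.085). The difference between these care groups was not past the threshold at any kept peak, as given below. The peak at 7633076, with its ratio of 0.651, deviated by 0.33 (SE 0.13) and 0.36 (SE 0.16) and was called in neither (adjusted p = 0.80 and 1.00).

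Filtering on low counts left 204 of the 209 kept peaks in these fits. The other 5 had 123 to 215 counts over all fish. The weakest, groupXIX 9987024 to 9987424, had 123 counts, 0 to 1.07 CPM in males (median 0.718) and 0.382 to 1.99 CPM in females (median 0.946), a ratio of 0.605. Its sexes overlapped over most of their range, and at that depth its ratio is loosely set.

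Summed per fish, the kept peaks separated the sexes without reaching parity. Relative to the mean of all females, the sum ran from 0.766 to 0.910 in the 15 males (median 0.839) and from 0.940 to 1.05 in the 16 females. No male overlapped a female. The rule sets only a lower bound on the ratio, so the choice of peaks raises the sum in males relative to females. The mean of males was 0.842 ± 0.039 (SD, n = 15). For the other X-middle peaks it was 0.506 ± 0.007 (SD, n = 15), with a range of 0.495 to 0.520. The kept peaks made up 16.1% of the X-middle counts in females and 24.1% in males, and with them the summed ratio of the X middle was 0.560.

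In splits of the males by care, side and library number, which the rule did not use, the means of the sum differed by less than its SD between males. Its mean was 0.856 ± 0.040 (SD, n = 8) in father-reared and 0.827 ± 0.034 (SD, n = 7) in orphaned males, whose ranges of 0.812 to 0.910 and 0.766 to 0.862 overlapped. Left sides had 0.833 ± 0.040 (SD, n = 5) and right sides 0.847 ± 0.041 (SD, n = 10). Libraries fell into 3 stretches of 11 library numbers, read as possible batches, and the mean of males was 0.840, 0.836 and 0.850 in them. In 15 families with a brother and a sister, the brother's sum was 0.772 to 0.948 of the sister's (median 0.824) at kept peaks and 0.494 to 0.523 at the others (median 0.508).

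**Figure D5:**
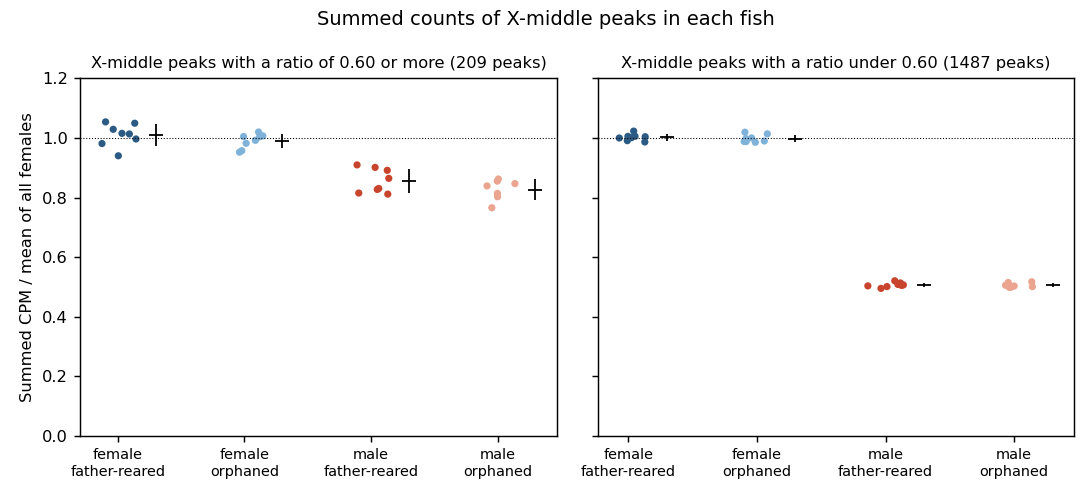
Summed CPM of the 209 kept peaks (left) and of the 1487 other X-middle peaks (right) in each fish, divided by the mean of all 16 females (y axis), by sex and care group. Points are fish and bars the mean ± SD. Males run from 0.766 to 0.910 on the left and from 0.495 to 0.520 on the right, and females lie around 1 in both.

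The kept peaks were also read in parts of the fish. These are the fish whose values chose them, so high counts are largely fixed by the choice and only describe the peaks. A ratio of 0.60 or more was found at 183 of the 209 in left sides and at 198 in right sides. In the 3 stretches of library numbers it was found at 183, 190 and 190. The median ratio of the kept peaks was 0.777 in father-reared and 0.765 in orphaned fish, 0.780 in left and 0.775 in right sides.

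No kept peak was called for paternal care, the contrast the study was built on. Here the rule did not use the contrast, and the test ran over all 100808 peaks that passed the filter, with father-reared minus orphaned as the direction. At an adjusted p under 0.05, edgeR called 0 of the 204 kept peaks tested over all fish, in males and in females, against a background of 0% of all peaks each time. The lowest adjusted p of a kept peak was 0.69 over all fish, 0.92 in males and 0.92 in females. DESeq2 also called 0. At an unadjusted p under 0.05, 25 kept peaks (12.3%) passed over all fish, 17 higher in father-reared fish and 8 lower, beside 7.24% of all peaks. In males 7 passed (3.43%), beside 5.31%, and in females 11 (5.39%), beside 4.63%. DESeq2 gave 32 (15.7%), 9 (4.41%) and 12 (5.88%), beside 7.47%, 4.99% and 4.42% of all peaks. The median log2 difference of the 204 was 0.01 over all fish, 0.02 in males and 0.03 in females, and the median of all peaks was nearer to 0 each time. The 1480 other X-middle peaks tested had medians of 0.01, 0.01 and 0.02, so a small positive shift was not particular to the kept peaks. Over all fish the 95% interval of the difference lay within 1.5-fold either way for 200 of the 204, and within 2-fold for all 204. In males and females alone it lay within 1.5-fold for 182 and 183.

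The kept peaks with the lowest unadjusted p for care follow with their values. At groupXIX 6032784 to 6033184 father-reared fish had 5.93 to 13.1 CPM (median 8.89) and orphaned fish 6.62 to 11.7 CPM (median 7.44). At groupXIX 7560853 to 7561253 father-reared fish had 1.82 to 5.99 CPM (median 4.13) and orphaned fish 3.88 to 7.90 CPM (median 5.31). The ranges overlapped at both, and the log2 differences were 0.29 (SE 0.10) and -0.35 (SE 0.13), each with an edgeR adjusted p of 0.69. In males, groupXIX 10835703 to 10836103 had 1.59 to 4.40 CPM in father-reared fish (median 3.73) and 3.74 to 5.79 CPM in orphaned fish (median 4.52), and groupXIX 8767638 to 8768038 had 16.7 to 29.3 CPM (median 19.7) and 15.0 to 19.7 CPM (median 17.6). The care groups overlapped at both, and the log2 differences were -0.50 (SE 0.20) and 0.36 (SE 0.14), with edgeR adjusted p of 0.92.

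In females the lowest unadjusted p belonged to groupXIX 9958917 to 9959317. There father-reared females had 4.80 to 15.7 CPM (median 9.81) and orphaned females 10.9 to 14.0 CPM (median 13.1), which is -0.39 on the log2 scale (SE 0.13) with an adjusted p of 0.92 by edgeR. The orphaned females thus lay inside the range of the father-reared ones.

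The male-to-female difference itself did not differ between the care groups at any kept peak by this test. For the interaction of care and sex, edgeR and DESeq2 called 0 of 204, with 0% of all peaks called. Unadjusted, 4 passed (1.96%), beside 3.49% of all peaks, and DESeq2 gave 3 (1.47%), beside 3.14%. The interval for this difference was wider, within 1.5-fold for 121 and within 2-fold for 200. At groupXIX 11847113 to 11847513 the ratio was 0.810 in father-reared and 0.456 in orphaned fish, an interaction of 0.75 (SE 0.24) on the log2 scale. Father-reared females had 3.73 to 6.36 CPM (median 5.46) and orphaned females 5.63 to 10.2 CPM (median 7.32), while the males had 3.33 to 5.43 CPM (median 4.23) and 2.24 to 4.79 CPM (median 3.61). At groupXIX 8561064 to 8561464 the ratio was 0.510 and 0.759, an interaction of -0.58 (SE 0.21). Both had an edgeR adjusted p of 1.00, and at both the care groups overlapped within each sex.

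No kept peak was called for brain side either. With left minus right as the direction, edgeR and DESeq2 called 0 of 204, with 0% of all peaks called. Unadjusted, 7 passed (3.43%), 5 higher in left sides, beside 4.06% of all peaks, and DESeq2 gave 10 (4.90%), beside 3.95%. At groupXIX 10257810 to 10258210 left sides had 3.62 to 8.51 CPM (median 6.17) and right sides 3.55 to 12.6 CPM (median 6.12). With sex and care in the fit, the log2 difference there was -0.33 (SE 0.12), although the unadjusted medians were close. At groupXIX 11999329 to 11999729 left sides had 5.43 to 9.14 CPM (median 7.87) and right sides 3.44 to 8.95 CPM (median 6.62), with a fitted log2 difference of 0.27 (SE 0.11). Left and right overlapped at both, and the lowest edgeR adjusted p of a kept peak was 0.99. The interval lay within 1.5-fold for 202 of the 204.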

How the data were processed

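ATAC-seq libraries came from 1 brain side of each of 31 fish, frozen as a homogenate, per the labels' protocols. Of the tools in the submitters' processing notes, DiffBind 3.14.0 and MACS2 2.2.5 work on peaks and Bowtie2 2.3.5.1 aligns reads, with Picard 2.10.1, SAMtools 1.9 and FastQC 0.11.8 listed beside them. No setting is listed. The build, the handling of duplicates and a Tn5 shift are unstated in the sources used here, and the first bears on where reads of the Y went. The table that the authors deposited holds raw counts for 1 set of peaks in every library, with no normalization. Reads from PCR carry no molecular identifiers, so copies of a molecule can be counted more than once.

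The kept peaks, the lists and the tests were chosen with earlier results of these data known. Ratios used CPM over counts off groupXIX. Held-out tests were fitted per care group with edgeR 4.0.16 (R 4.3.3) on the whole table, with TMM factors computed off groupXIX and filterByExpr by sex. In the X middle the offset of males was lowered by the median difference of the X-middle peaks in the same fish. That reference includes the chosen peaks. Care, its interaction with sex, and side were fitted over all 31 libraries with TMM and filterByExpr by 4 care-by-sex groups. The Benjamini-Hochberg adjusted p threshold was 0.05 over all peaks tested, and SEs follow from the F statistic. Alternatives used DESeq2 1.42.0 and limma 3.58.1. The fits were also run on simulated counts, whose outcome is not given here. Those counts had independent peaks and 1 common spread, unlike the real peaks, which differ in spread and can share fragments.

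Peaks named by rule were the 10 with the highest value of the lower of the care-group ratios, the 5 strongest in females, the 3 just inside and the 3 just outside 0.60, the highest ratio, the lowest total count, and the 2 with the lowest unadjusted p for each contrast of care or side. The peaks starting at 4028677, 5103454, 5402688 and 6090739, and the runs, were named after their values were seen. Family is inferred: fish whose identifiers start with the same number were taken as siblings. Siblings share a family within a care group, so for care the fish are not fully independent. The fish are separate animals, each with 1 library.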

Additional observations from a re-analysis of the deposited data

Results flagged for a closer look

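Single fish stood apart from the rest of their group at 4 of the named peaks. The gap of the highest or lowest fish to its nearest neighbour, set against the whole range of the group, was examined in 132 groups of 7 or 8 fish. Chance flags about 1 group in 20, and 4 were flagged, each in another library. That is no more than this rate would give.

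At groupXIX 7569454, the peak with the highest ratio, father-reared female 2 had 20.1 CPM against 28.0 to 35.1 CPM in the other father-reared females. At groupXIX 8561064, father-reared female 5 had 19.1 CPM against 10.1 to 13.9 CPM. At groupXIX 11116109, just outside the rule, father-reared male 2 had 13.5 CPM against 5.71 to 9.31 CPM. At groupXIX 7560853, orphaned female 5 had 7.90 CPM against 4.78 to 6.26 CPM. Under other library scalings and other averages over fish, the ratio of each of these peaks moved by less than 1 SD. That SD is the spread between single males relative to the female mean, not the error of a mean ratio. None of these alternatives left out the flagged fish. The ratios were also computed without each library in turn, but what each flagged fish alone changed is not given here.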

How the results depend on the processing

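The number of kept peaks depends most on the threshold, at 371 for 0.55, 161 for 0.65, 135 for 0.70 and 91 for 0.80. It was 223 with TMM-scaled library sizes, 220 with groupXIX in the total, 227 with medians over fish (195 shared with the 209), 199 from summed counts, 209 and 201 with at least 100 and 500 counts, and 205 to 220 without any single library. Left sides alone gave 298 (183 shared) and right sides alone 240 (198 shared). The share of held-out peaks at 0.60 or more in orphaned fish was 59.5% with medians over fish, 78.2% with at least 500 counts, and 61.8% to 70.7% without any single library. In father-reared fish it was 60.7%, 76.6%, and 65.3% to 71.3%. Held-out calls were 93 to 107 in orphaned and 84 to 97 in father-reared fish without any single library. With family as a fixed replicate block they were 92 and 108, with a reference of exactly -1 they were 121 and 105, adjusted over the X-middle peaks alone 140 and 128, and with DESeq2 111 and 105. Under the adjustment over the X-middle peaks alone, 3 X-middle peaks in orphaned and 2 in father-reared fish were called below the reference. Of the latter, 1 was a chosen peak. In each care group 3 peaks that were not chosen were then called above it. With RLE factors, no filter, side or library stretch the held-out calls lay from 100 to 107 and from 88 to 99. The care, interaction and side fits called 0 kept peaks under all 21 alternatives. Among these were family as a random replicate block for care and as a fixed one for the interaction. Peaks at the border could change sides of 0.60. The kept peak starting at 7626588 had a ratio of 0.595 with medians over fish. The peak just outside, starting at 4276769, had 0.606 with TMM-scaled library sizes. Peaks chosen at 0.60 to under 0.65 recurred in 21.2% and 26.0% of cases, beside 14.8% and 15.5% of all X-middle peaks. The part of depth in this was not tested. The labels name no library batch, only a running number in the library name. Of the fish, 5 of 15 males and 8 of 16 females are left sides, and the build and the genes at these peaks were not used here.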
